A study of Homo sapiens with 3 samples.

Results

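Replication-independent histone variants were followed in the gastric cancer cell line HGC-27, at passage 6 and 48 h after siRNA transfection. The family comprised 10 of the 50868 genes in the deposited table, taken by name: H3F3A, H3F3B, H3F3C, H2AFZ, H2AFV, H2AFX, H2AFY, H2AFY2, H1F0 and H1FX. The family was chosen by the level of H3F3B, which was known to be higher in both knockdown libraries than in the control library, so values against control are given as a description. The 3 libraries came from cells given IRF3 siRNA, YAP siRNA or control siRNA, 1 library each, and the labels name no other difference. IRF3 is a factor of antiviral transcription, and YAP (gene YAP1) is the coactivator restrained by the Hippo pathway. The sources used here do not give the siRNA sequences, and with 1 library per condition no difference has a replicate check or a p-value. Intervals below are 95% intervals of counts, and cover counting error only.

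Most histone is made in S phase from clustered genes whose mRNAs end in a stem-loop. Replication-independent variants are instead made throughout the cell cycle from separate genes with polyadenylated mRNA, and are exchanged into nucleosomes outside replication. H3F3A and H3F3B both encode histone H3.3, which the HIRA complex places at active genes and DAXX with ATRX at telomeric and other repeats. H2AFZ and H2AFV encode the H2A.Z forms found at promoters, H2AFX encodes the variant that is phosphorylated around DNA breaks, H2AFY and H2AFY2 encode macroH2A, which carries a large macrodomain and is enriched in silent chromatin, and H1F0 and H1FX encode linker histones.

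Reads of H3F3A can match processed copies of the gene that have rows of their own. A 90-base stretch of the coding sequence (bases 299 to 388 from the A of the start codon) is therefore shown. It is given for the H3.3 genes and for the 2 copies named after H3F3A that had reads. The sequences are the sense strand of GENCODE release 29 transcripts on GRCh38, in lower case, with capitals where a base differs from H3F3A.
H3F3A (chromosome 1): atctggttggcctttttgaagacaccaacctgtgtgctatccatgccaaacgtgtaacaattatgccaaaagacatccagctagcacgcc
H3F3AP4 (chromosome 2): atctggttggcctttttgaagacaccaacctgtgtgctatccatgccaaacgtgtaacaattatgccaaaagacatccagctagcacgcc
H3F3AP6 (chromosome 4): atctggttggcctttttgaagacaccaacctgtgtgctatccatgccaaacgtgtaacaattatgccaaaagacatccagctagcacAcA
H3F3B (chromosome 17): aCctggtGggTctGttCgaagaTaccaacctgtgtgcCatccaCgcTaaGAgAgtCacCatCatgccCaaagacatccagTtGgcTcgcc
H3F3C (chromosome 12): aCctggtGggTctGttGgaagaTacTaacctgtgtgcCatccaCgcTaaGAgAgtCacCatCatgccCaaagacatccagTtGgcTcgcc

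Over the whole coding sequence with its stop codon (411 bases), H3F3AP4 was identical to H3F3A and H3F3AP6 differed at 3 bases. H3F3B differed from H3F3A at 88 bases, an identity of 78.6%, and shared no 50-base window with it. H3F3C, which is known as a primate retrocopy of H3F3B encoding histone H3.5, was 97.3% identical to H3F3B over 408 aligned bases. Reads lying within the coding part of H3F3A therefore match H3F3AP4 equally well, while reads from H3F3B match neither of them.

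Counts assigned to genes came to 14941556 with IRF3 siRNA, 14385959 with YAP siRNA and 13949401 with control siRNA. Levels are the deposited FPKM (counts scaled by the authors to gene length and library total), and ratios are log2 of FPKM plus 1, which understates changes of low genes. IRF3 itself stood at 2.90 FPKM with IRF3 siRNA, 3.86 FPKM with YAP siRNA and 3.55 FPKM with control siRNA, a log2 ratio to control of -0.22 with its own siRNA, and of -0.02 when counts of genes with overlapping exons were summed, so its RNA does not check that label. YAP1 stood at 3.58, 2.23 and 5.89 FPKM in that order, with log2 ratios of -0.59 for the IRF3 siRNA library and -1.09 for the YAP siRNA library. Across the other settings run, YAP1 ranged from -0.70 to -0.33 with IRF3 siRNA and from -1.36 to -0.89 with YAP siRNA. It was therefore not past 2-fold with YAP siRNA under every setting. None of 7 epithelial markers reached a mean of 1 FPKM, and of 6 gastric markers 4 had no count in any library. Of 4 mesenchymal markers 2 reached that mean, among them VIM at 451, 469 and 511 FPKM with IRF3, YAP and control siRNA. The mesenchymal markers CDH2 and ZEB1 did not, with at most 0.130 and 0.491 FPKM in any library. Of leukocyte, endothelial and erythroid markers, 1 of 5, 0 of 3 and 2 of 3 reached that mean. Fewer cells making an RNA and less of it per cell cannot be told apart in these bulk libraries.

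**Figure D1:**
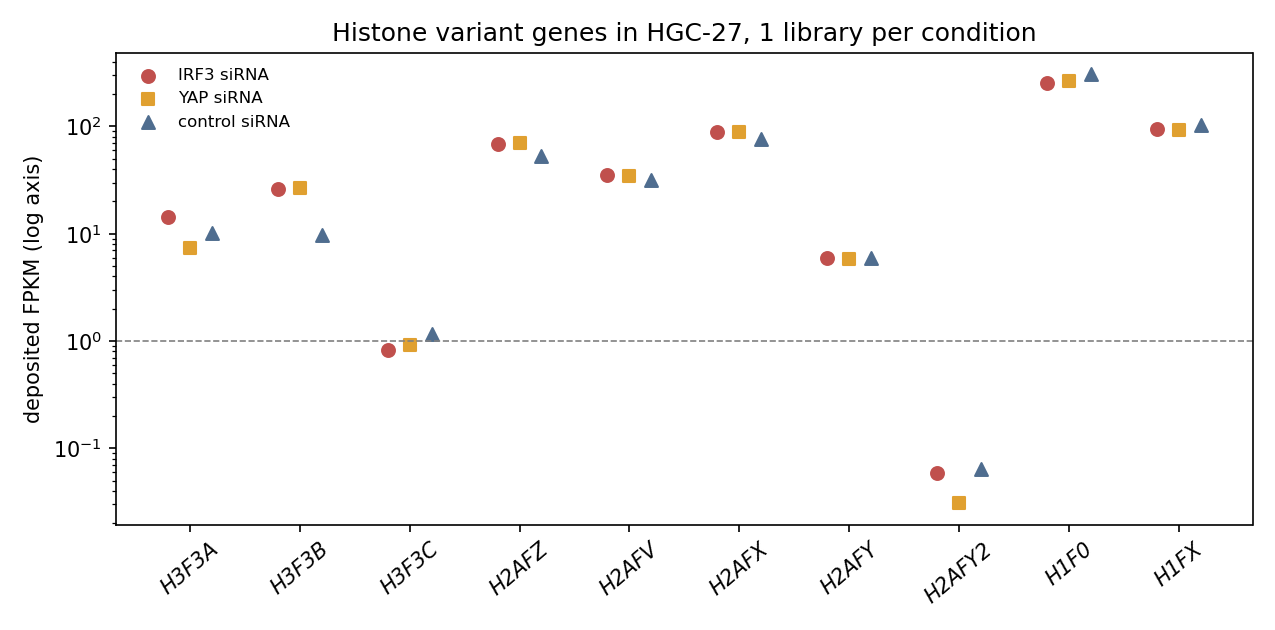
Deposited FPKM (log axis) of each histone variant gene in the IRF3 siRNA, YAP siRNA and control siRNA libraries, 1 point per library, with a dashed line at the filter of 1 FPKM. H3F3B stands at 26.4 and 26.7 FPKM in the knockdown libraries and at 9.71 FPKM in the control library, and H3F3C and H2AFY2 lie at or under the line on average.

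Of the 10 genes, 8 had a mean of at least 1 FPKM over the 3 libraries. H3F3C had a mean of 0.966 FPKM and H2AFY2 of 0.0514 FPKM, so neither was measured well enough for a ratio. Among the 8, H3F3B was past 2-fold and higher in both knockdowns, and no other gene was past 2-fold in either direction. Over all 11103 genes, 0.387% were past 2-fold and higher with IRF3 siRNA and 0.612% lower, and 0.351% higher and 0.468% lower with YAP siRNA. Since H3F3B was known to be high when the list was made, nothing is read from 1 in 8 against that background. The 8 ratios had a median of 0.18 in the IRF3 knockdown, beside -0.03 over all genes, and of 0.05 in the YAP knockdown, beside -0.02. They were above 0 for 6 genes and below it for 2 in the IRF3 knockdown, where 46.1% and 53.9% of all genes were, and above 0 for 4 and below it for 4 in the YAP knockdown, beside 46.5% and 53.4%.

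H3F3B (ENSG00000132475, chromosome 17, 75776434 to 75785893, minus strand, hg38) stood at 26.4 FPKM with IRF3 siRNA, 26.7 FPKM with YAP siRNA and 9.71 FPKM with control siRNA, from 4828, 4703 and 1658 counts. Both knockdown libraries lay well above the control library and close to each other. As counts per library total, the ratio to control was 2.72 (2.57 to 2.88) with IRF3 siRNA and 2.75 (2.60 to 2.91) with YAP siRNA. Both ratios share the 1 control library, so they are not 2 separate observations. On the log2 scale of FPKM plus 1 the values were 1.36 and 1.37, with 14 and 13 of 11103 genes higher still.

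The authors' H3F3B locus includes long isoforms that reach the start of UNK, an RNA-binding protein gene on the plus strand, with which it shares 214 exonic bases. Whether the counting used strand is not stated, so reads in those bases cannot be placed. UNK itself had 737, 654 and 676 counts with IRF3, YAP and control siRNA, or 49.3, 45.5 and 48.5 CPM (counts scaled to a common library total). With the reads of both genes summed, the log2 ratio of H3F3B was 1.10 in each knockdown.

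Promoter letters were read for the gene that stood out. The 250 bases before the RefSeq start of H3F3B are shown (GRCh38.p14, chr17:75779780-75780029, minus strand, written 5′ to 3′), with capitals for the CCAAT box, for the TATA box string TATAAA and, as its reverse complement, for GGAATG, the letters of sites of the TEAD factors through which YAP acts.
H3F3B: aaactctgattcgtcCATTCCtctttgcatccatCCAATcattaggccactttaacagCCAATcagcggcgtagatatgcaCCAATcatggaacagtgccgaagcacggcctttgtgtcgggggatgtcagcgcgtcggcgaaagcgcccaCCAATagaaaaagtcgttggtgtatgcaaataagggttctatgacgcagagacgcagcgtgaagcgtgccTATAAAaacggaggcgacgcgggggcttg

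Both strands were searched, and the marked strings do not overlap. H3F3B held 4 CCAAT boxes, 1 TATA box string and 1 TEAD string. The set of RefSeq promoters used here held 12 promoters for 8 of the members, 4 of them for H3F3A and 2 for H2AFY. It held none for H3F3C and H1F0, which were therefore not searched. The CCAAT box occurred in 8 of the 12 and in 32.0% of 35116 promoters, the TATA box string in 4 of the 12 and 10.7%, and the TEAD string in 1 of the 12 and 11.9%. H2AFX and H2AFV also held 4 CCAAT boxes and H2AFZ held 3, and 2.93% of all promoters held at least 3. A pair of GAAA with any 2 bases between them, the core of interferon response elements that IRF factors bind, was in 0 of the 12 and in 3.02% of all promoters. A letter match is a description and not a binding site, and these data hold no binding measurement.

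H3F3A (ENSG00000163041, chromosome 1, 226061851 to 226072001) was listed at 14.4 FPKM with IRF3 siRNA, 7.41 FPKM with YAP siRNA and 10.1 FPKM with control siRNA, from 957, 474 and 629 counts. Taken alone, the row is higher than control with IRF3 siRNA and lower with YAP siRNA. Its count ratio to control was 1.42 (1.28 to 1.57) in the IRF3 knockdown and 0.731 (0.647 to 0.824) in the YAP knockdown.

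The 2 near-identical copies shown above held several times more reads than the gene. H3F3AP4 (chromosome 2, 174719908 to 174720318) had 2482 counts with IRF3 siRNA, 2621 with YAP siRNA and 2149 with control siRNA. H3F3AP6 (chromosome 4, 139698144 to 139698554) had 1991, 2127 and 1754 counts in the same order. The row named H3F3A held 17.6%, 9.08% and 13.9% of the reads of these 3 rows. H3F3AP4 and H3F3AP6 were lower in the IRF3 siRNA library than in the YAP siRNA library (ratios 0.912 and 0.901), where the H3F3A row was higher.

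Summed over the 3 rows, H3F3A-type reads came to 363.4 CPM with IRF3 siRNA, 363.0 with YAP siRNA and 325 with control siRNA. The knockdown libraries did not differ from each other beyond counting error (ratio 1.001, 0.964 to 1.04). Against control the ratios were 1.12 (1.07 to 1.16) with either siRNA. The opposite signs of the H3F3A row are thus absent from the sum. How reads with several matches were assigned is not stated, so the sum may count the same read more than once. Genes under other names that share 50-base windows with H3F3A were not added, among them AL590139.1 (219 windows) and AC023886.2 (113 windows). The intervals of the sum take every count as a separate read. With H3F3B added, H3.3-type reads were 687 CPM with IRF3 siRNA, 690 with YAP siRNA and 444 with control siRNA, a ratio to control of 1.55 (1.499 to 1.597) and 1.56 (1.506 to 1.605).

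**Figure D2:**
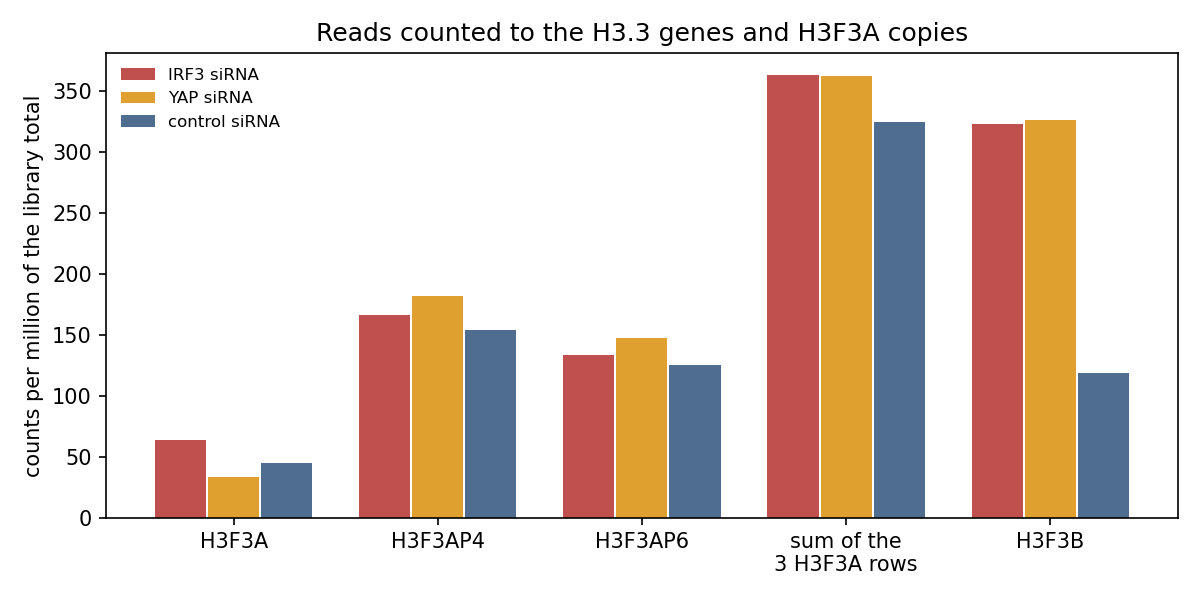
CPM (counts scaled to the library total) of the rows H3F3A, H3F3AP4 and H3F3AP6, for their sum, and for H3F3B, in the IRF3 siRNA, YAP siRNA and control siRNA libraries (1 library each, so no error bars). The sum of the H3F3A rows is 363.4, 363.0 and 325 CPM, while H3F3B is 323, 327 and 119 CPM.

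The balance of the H3.3 genes does not depend on the scaling between libraries. H3F3B made up 47.1% of H3F3A-type plus H3F3B reads with IRF3 siRNA, 47.4% with YAP siRNA and 26.8% with control siRNA when the copies were included. The odds of a read coming from H3F3B were 2.43 times (2.27 to 2.60) and 2.46 times (2.30 to 2.64) those of the control library. These shares and odds rest on the summed rows, in which a read may be counted more than once. Without the copies the shares were 83.5%, 90.8% and 72.5% of counts, and the odds ratios were 1.91 and 3.76, further apart than with the copies.

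H3F3C had 13 counts with IRF3 siRNA, 14 with YAP siRNA and 17 with control siRNA. Of its 50-base windows 21.8% also occur in H3F3B, which has far more reads, and no direction can be given at this depth.

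H2AFZ (ENSG00000164032, chromosome 4, 99948086 to 99950388), which encodes the more studied H2A.Z form, stood at 68.2 FPKM with IRF3 siRNA, 70.5 FPKM with YAP siRNA and 53.1 FPKM with control siRNA. Its count ratio to control was 1.29 (1.24 to 1.33) and 1.33 (1.28 to 1.38), above 1 in both and short of 2-fold. H2AFV (ENSG00000105968, chromosome 7, 44826791 to 44848083), which encodes the second H2A.Z form, stood at 35.3, 34.5 and 31.6 FPKM in the same order, with count ratios of 1.12 (1.06 to 1.18) and 1.09 (1.04 to 1.15). The knockdown libraries were thus higher than control for both genes, by more for H2AFZ. H2AFV made up 33.8% (32.9 to 34.7) of the counts of this pair with IRF3 siRNA and 32.5% (31.6 to 33.5) with YAP siRNA, against 37.0% (35.9 to 38.1) with control siRNA. Its odds relative to H2AFZ were 0.870 times (0.817 to 0.926) and 0.821 times (0.771 to 0.875) those of the control library.

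Copies took few reads here. The H2AFZ pseudogenes named in the table had at most 2 counts each in any library. H2AFVP1, a transcribed copy of H2AFV listed under the clone name RP11-386M24.4, had 161, 142 and 130 counts with IRF3, YAP and control siRNA, beside 3367, 3165 and 2812 for H2AFV.

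H2AFX (ENSG00000188486, chromosome 11, 119093854 to 119095467), whose protein is phosphorylated by ATM, ATR and DNA-PK at DNA breaks and whose mRNA is known to exist in both polyadenylated and stem-loop form, stood at 88.9 FPKM with IRF3 siRNA, 88.0 FPKM with YAP siRNA and 76.6 FPKM with control siRNA. The count ratios were 1.16 (1.11 to 1.22) and 1.15 (1.10 to 1.20). H2AFX is GC-rich (66.8% over its transcripts). When a trend of the ratios in GC content, exon length and level, fitted over 11066 genes, was removed, its log2 ratio was -0.04 with IRF3 siRNA and 0.01 with YAP siRNA, beside 0.21 and 0.20 without.

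H2AFY (ENSG00000113648, chromosome 5, 135333900 to 135399914), whose splice forms macroH2A1.1 and macroH2A1.2 the gene counts do not separate, stood at 5.94 FPKM with IRF3 siRNA, 5.79 FPKM with YAP siRNA and 5.91 FPKM with control siRNA. Its count ratios were 1.01 (0.949 to 1.07) and 0.979 (0.923 to 1.04), both with 1 inside the interval. With the trend removed its log2 ratios were 0.33 and 0.27, beside 0.01 and -0.03 without. H2AFY2, the gene of macroH2A2, had 2 counts with IRF3 siRNA, 1 with YAP siRNA and 2 with control siRNA. In the control library it made up 0.0884% (0.0107 to 0.319) of the counts of the macroH2A genes.

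H1F0 (ENSG00000189060, chromosome 22, 37805093 to 37807436), a linker histone known to accumulate in differentiated and slowly dividing cells, had the highest deposited FPKM of the family. It stood at 253 FPKM with IRF3 siRNA, 263 FPKM with YAP siRNA and 305 FPKM with control siRNA, from 8874, 8858 and 9972 counts. The knockdown libraries were lower than control, with count ratios of 0.831 (0.807 to 0.855) and 0.861 (0.837 to 0.886). H1FX (ENSG00000184897, chromosome 3, 129314771 to 129316277), a divergent linker histone, stood at 95.4, 92.5 and 102 FPKM in the same order, with count ratios of 0.931 (0.877 to 0.989) and 0.903 (0.849 to 0.960). On the log2 scale H1F0 had -0.27 and -0.21 and H1FX -0.10 and -0.15, and with the trend removed all 4 values were between -0.42 and -0.32. With TMM-scaled CPM, which put the median gene at 0.07 and 0.06, H1F0 had -0.17 and -0.13 and H1FX 0.00 and -0.06. H1FX was thus near 0 under that scaling, though still below the median gene. Centred on the median gene, H1F0 had -0.24 and -0.19 and H1FX -0.07 and -0.12.

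**Figure D3:**
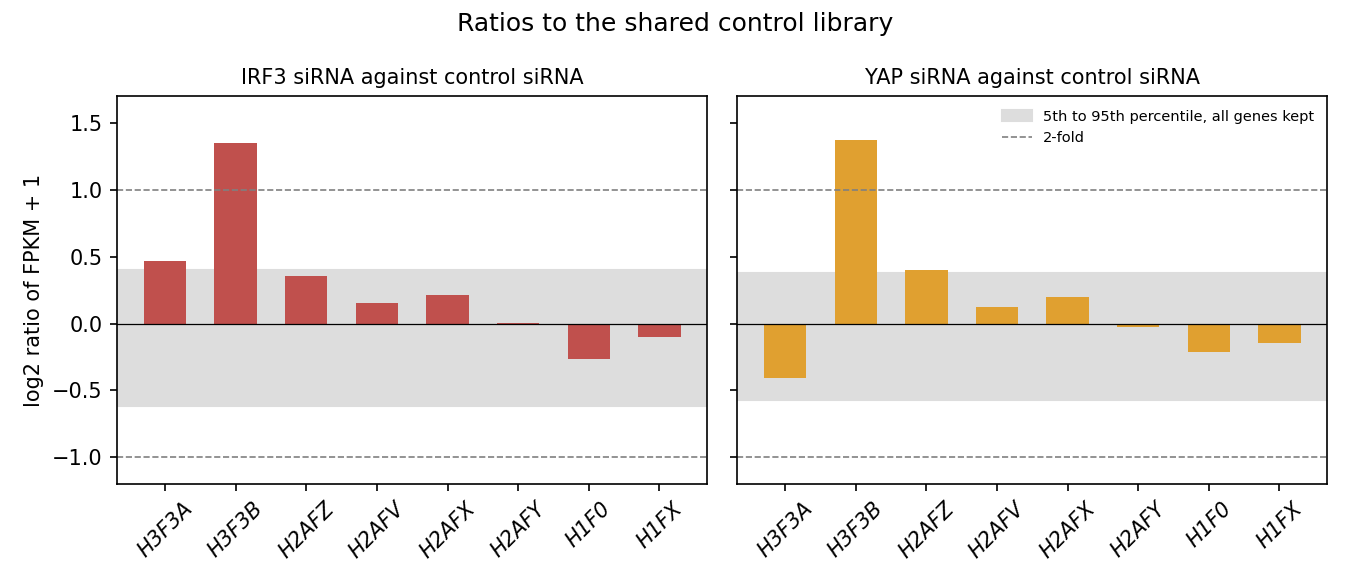
Log2 ratio of FPKM plus 1 to the control library for the 8 measured genes, with IRF3 siRNA on the left and YAP siRNA on the right, 1 library each. The grey band holds the 5th to 95th percentile of 11103 genes and the dashed lines mark 2-fold. H3F3B, at 1.36 and 1.37, is the only bar past 2-fold, and H3F3A lies at 0.47 in the IRF3 knockdown and at -0.41 in the YAP knockdown.

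Set against all genes, the smaller ratios lay mostly inside the bulk of the table. The 5th and 95th percentiles of 11103 genes were -0.62 and 0.40 with IRF3 siRNA, and -0.57 and 0.38 with YAP siRNA. H2AFZ was inside that range with IRF3 siRNA (0.36) and above it with YAP siRNA (0.40), H3F3A was above it with IRF3 siRNA (0.47), and H2AFV, H2AFX, H2AFY, H1F0 and H1FX were inside it in both. At a threshold of 1.5-fold H3F3B was still the single member, beside 1.59% of genes higher and 5.88% lower in the IRF3 knockdown, and 1.59% higher and 4.64% lower in the YAP knockdown.

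Compared directly, IRF3 siRNA and YAP siRNA libraries differed little over the family, and this comparison leaves out the control library. None of the 8 genes was past 2-fold, beside 0.297% of genes higher and 0.315% lower, and 5 were above 0 and 3 below it, beside 48.2% and 51.8%. At 1.5-fold 1 gene, H3F3A, was higher and none lower, beside 1.18% and 1.28%. H3F3B had a log2 ratio of -0.02. Apart from H3F3A, at 0.87, the 7 remaining ratios were between -0.05 and 0.04. Intervals of the count ratio held 1 for 6 genes, and H1F0 was marginally lower with IRF3 siRNA (0.965, 0.936 to 0.994). When its copies were summed in, the log2 ratio of H3F3A became 0.0017.

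The order of levels within the family depended on gene length. The deposited FPKM values imply a length for each gene, and for all 10 this equalled, within 1%, the sum of every distinct annotated exon, in which overlapping exons of different isoforms are counted again. For H3F3B that length was 12247 bases, beside 6134 bases covered by its exons and 2705 bases in its principal transcript. The ratio of deposited to covered length was 2.81 for H2AFZ, 1.997 for H3F3B, 1.85 for H2AFX, 1.55 for H2AFY, 1.41 for H3F3A and 1.34 for H2AFV. The lengths were equal for the single-transcript genes H1F0, H1FX and H3F3C. Ratios between libraries are untouched by this except through the pseudocount.

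In the control library the deposited FPKM order was H1F0 (305), H1FX (102), H2AFX (76.6), H2AFZ (53.1), H2AFV (31.6), H3F3A (10.1), H3F3B (9.71) and H2AFY (5.91). Per kilobase of covered exon the order was H1F0 (305), H2AFZ (149), H2AFX (142), H1FX (102), H2AFV (42.5), H3F3B (19.4), H3F3A (14.3) and H2AFY (9.14). Per kilobase of the principal transcript H2AFZ (351) passed H1F0 (305), and H2AFV (268) passed H2AFX (142). H3F3B went above H2AFV per kilobase of covered exon in both knockdown libraries, at 52.7 against 47.5 with IRF3 siRNA and 53.3 against 46.3 with YAP siRNA. Under the other lengths H3F3B stayed below H2AFV in both knockdown libraries. Per kilobase of the principal transcript the values were 119.5 against 299.7 with IRF3 siRNA and 120.9 against 292.6 with YAP siRNA. With 1 library per condition, neighbours in these orders cannot be separated beyond counting error. The value of H3F3A does not include its copies under any of the 3 lengths.

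**Figure D4:**
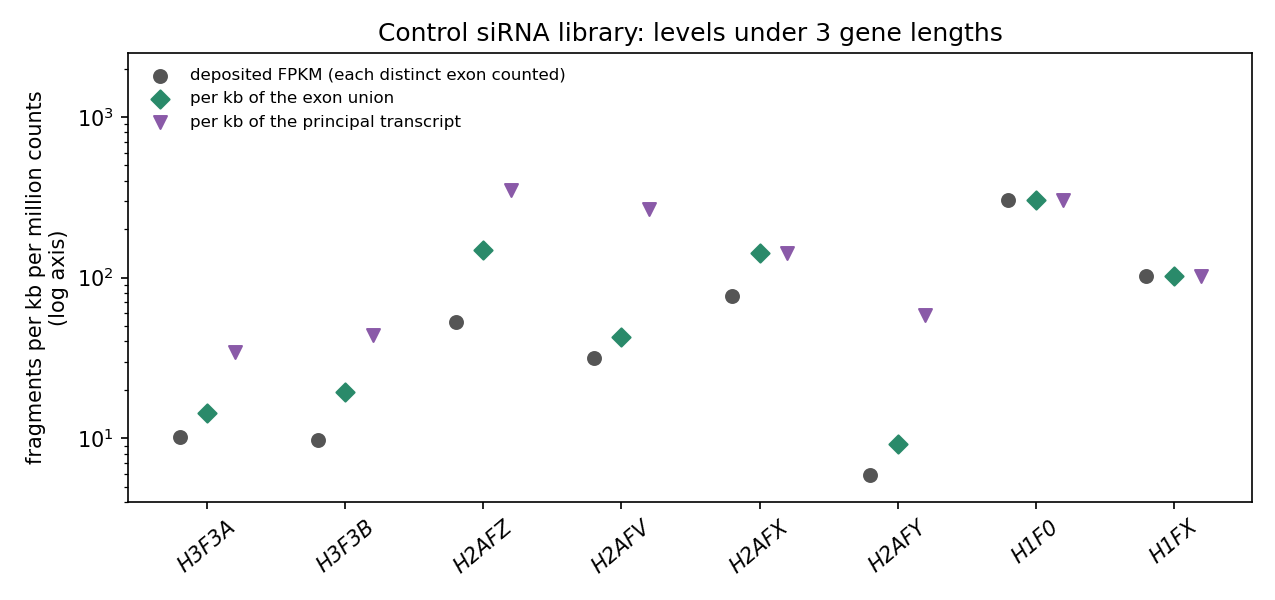
Level of the 8 measured genes in the control siRNA library (FPKM, log axis) under 3 gene lengths: the deposited one, the union of exons and the principal transcript. The points coincide for H1F0 and H1FX and spread widest for H2AFY and H2AFV, and H2AFZ lies at 53.1, 149 and 351 under the 3 lengths.

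The machinery that handles these variants was read from 7 lists chosen with earlier results of these data known. Their counts stand beside the shares over all genes, 0.387% higher and 0.612% lower in the IRF3 knockdown and 0.351% higher and 0.468% lower in the YAP knockdown. A count of 0 in a list is near those shares and is no result about the list. Medians stand beside -0.03 and -0.02 over all genes. With the trend in GC content, exon length and level removed, all 17 of the named list genes below 0 lay higher in each knockdown, 1 of them above 0 (NAP1L1 with IRF3 siRNA).

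None of the 7 measured H3.3 chaperone genes was past 2-fold in either knockdown, and their median ratio was 0.15 for the IRF3 knockdown and -0.03 for the YAP knockdown. UBN1, a subunit of the HIRA complex, had log2 ratios of -0.28 and -0.48, DEK, an H3.3-binding oncoprotein, -0.24 and -0.21, and the histone carriers ASF1B 0.19 and 0.22 and ASF1A 0.17 and -0.05. Without the trend UBN1 had -0.13 and -0.32, DEK -0.06 and -0.09, and ASF1B -0.05 and 0.03. Nor was any of 13 general and replication-coupled chaperones past 2-fold (medians 0.00 and -0.07), among them SET at -0.43 and -0.36, NAP1L1 at -0.32 and -0.36, the transcription elongation factor SUPT6H at -0.25 and -0.39, and MCM2 at 0.41 and 0.23. Without the trend NAP1L1 had 0.02 and -0.07, SUPT6H -0.09 and -0.23, and MCM2 0.30 and 0.15.

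Of 22 measured genes for H2A.Z exchange none was past 2-fold (medians 0.10 and 0.04). VPS72, the H2A.Z-binding subunit of the SRCAP complex, stood at 8.83 FPKM with IRF3 siRNA, 12.6 FPKM with YAP siRNA and 7.62 FPKM with control siRNA, a log2 ratio of 0.19 and 0.66. When counts of genes with overlapping exons were summed, VPS72 had 0.18 and 0.41. The scaffold TRRAP had -0.59 and -0.64, the remodeller INO80 -0.59 and -0.41, and its partner ACTR5 0.54 and 0.35. Without the trend TRRAP had -0.32 and -0.38 and INO80 -0.35 and -0.19.

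Genes acting on H2AX included some past 2-fold. Of 9 measured, 2 were past 2-fold and lower in each knockdown, beside 0.612% and 0.468% of all genes, and none higher. Their medians were -0.34 and -0.36, beside -0.03 and -0.02 over all genes. No test was made of this list, and both counts share the control library. PRKDC, the catalytic subunit of DNA-PK, stood at 8.20 FPKM with IRF3 siRNA, 7.36 FPKM with YAP siRNA and 20.9 FPKM with control siRNA, with log2 ratios of -1.25 and -1.39. BAZ1B, the kinase that phosphorylates the C-terminal tyrosine of H2AX, stood at 5.45, 6.07 and 13.2 FPKM in that order, with log2 ratios of -1.14 and -1.01. After removal of the same trend as for H2AFX, neither gene was past 2-fold with IRF3 siRNA, and BAZ1B was not with YAP siRNA. PRKDC then had -0.93 and -1.11 and BAZ1B -0.94 and -0.85. RNF168, a ubiquitin ligase of damaged chromatin, had -0.47 and -0.49 and the tyrosine phosphatase EYA3 -0.31 and -0.41. Without the trend RNF168 had -0.22 and -0.29 and EYA3 -0.03 and -0.17.

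Of 14 other entries listed as histone variants, which included the pseudogenes H3F3AP3 and HIST1H3PS1, 3 had a mean of at least 1 FPKM. None of these 3 was past 2-fold (medians 0.13 and 0.34). CENPA, the centromeric H3 variant, stood at 13.0 FPKM with IRF3 siRNA, 12.1 FPKM with YAP siRNA and 11.8 FPKM with control siRNA. H2BFS rested on 21, 22 and 15 counts and HIST1H3PS1, which shares 50-base windows with H3F3A, on 8, 12 and 8. The median of 0.34 with YAP siRNA was the value of HIST1H3PS1, so no direction is read from it. Of 8 factors that process replication-dependent histone mRNA none was past 2-fold (medians -0.05 and -0.10), with the cleavage factor CPSF2 at -0.66 and -0.53, LSM11 at -0.60 and -0.48, CPSF3 at -0.26 and -0.18 and LSM10 at 0.09 and 0.30. Without the trend CPSF2 had -0.26 and -0.17, LSM11 -0.33 and -0.26, CPSF3 -0.12 and -0.11, and LSM10 -0.17 and 0.09.

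Clustered replication-dependent genes gave 235 CPM in total with IRF3 siRNA, 230 with YAP siRNA and 219 with control siRNA, beside 2221, 2214 and 1970 for the 10 variant genes. Whether polyadenylated RNA was selected is not stated. Of 14 measured proliferation genes, 1 was past 2-fold and lower in the YAP knockdown, beside 0.468% of all genes, and 0 in the IRF3 knockdown (medians of the list 0.11 and 0.10). It was MKI67, with -0.99 in the IRF3 knockdown and -1.12 in the YAP knockdown. Without the trend MKI67 had -0.65 and -0.80, and with TMM-scaled CPM -1.21 and -1.41, so its call in either knockdown depends on the setting. TOP2A had -0.99 with IRF3 siRNA and -0.93 with YAP siRNA, while E2F1 (0.50 and 0.51) and MCM7 (0.43 and 0.32) were above 0. Without the trend TOP2A had -0.82 and -0.80, E2F1 0.28 and 0.35, and MCM7 0.31 and 0.22. The part of these genes in the H3F3B values was not tested.

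The 5 genes with the pair of log2 ratios closest to that of H3F3B were taken from 5055 with a mean of at least 5 FPKM, by distance over the 2 ratios, which rest on 3 libraries. They were NUDCD3 (1.24 with IRF3 siRNA and 1.16 with YAP siRNA, distance 0.243), TMEM164 (1.12 and 1.07), CYB5R3 (1.08 and 1.09), F11R (0.96 and 1.18) and NXN (1.06 and 0.99, distance 0.486). With overlapping genes summed, H3F3B had 1.10 in each knockdown, beside 1.30 and 1.21 for NUDCD3. That 1.10 includes the reads of UNK, at 49.3, 45.5 and 48.5 CPM with IRF3, YAP and control siRNA, and is not a value of H3F3B alone. Which row has the larger ratio thus depends on whether UNK is added.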

How the data were processed

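The submitters' processing notes name TopHat2 2.0.9 and hg38. The deposited table gives raw counts and FPKM per gene and library, per the file headers. Library selection, gene counter, strand setting and the handling of multiple matches: not given in the sources used here. Gene length was derived from the FPKM and count of each gene's library with the most counts. Deposited FPKM then equalled counts divided by library total and that length within 1% for 100% of 73927 nonzero values. The match holds by construction for the library that gave the length. FPKM thus carries the counts' depth.

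Members and gene lists were chosen with earlier results of these data known. Genes with a mean of at least 1 FPKM (11103) were kept, log2 ratios used a pseudocount of 1, and a gene was called past 2-fold, without a test. From each list, up to 4 measured genes with the largest ratio to control were named, and IRF3 and YAP1 always. Count ratios carry exact Clopper-Pearson intervals, and odds ratios exact conditional intervals. Exon lengths, overlaps, GC content and transcript sequences came from GENCODE release 29, in which 98.5% of the genes were found and 93.8% of the kept genes had identical coordinates. Promoters came from RefSeq. The trend in level, exon length and GC content was an additive spline fit with 4 degrees of freedom each over 11066 genes. Tools were R 4.3.3 with edgeR 4.0.16 (TMM scaling only) and Python 3.11.15 with patsy 1.0.2 (splines), scipy 1.17.1 (intervals), pandas 2.3.3, numpy 2.4.6 and matplotlib 3.10.9.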

Additional observations from a re-analysis of the deposited data

Results flagged for a closer look

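H3F3A was the one gene of the family whose row moved in opposite directions beyond counting error, with a log2 ratio to control of 0.47 in the IRF3 knockdown and -0.41 in the YAP knockdown. Each siRNA has 1 library, so the difference was not tested. With the counts of the processed copies named after it summed in, the values were 0.16 and 0.16.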

How the results depend on the processing

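No paired analysis was possible because each condition has 1 library. H3F3B was the one gene past 2-fold in each knockdown under all settings run but one: at 3-fold the number of members called was 0 with IRF3 siRNA and 0 with YAP siRNA. At 1.5-fold 1 member (H3F3A) was called in the direct comparison. The log2 ratio of H3F3B was 1.54 and 1.55 with TMM-scaled CPM and 1.10 and 1.10 with overlapping genes summed (IRF3 siRNA first), and otherwise 1.35 to 1.45. The H3F3B share of H3.3 depended on the measure. By deposited FPKM it was 64.7% with IRF3 siRNA, 78.3% with YAP siRNA and 48.9% with control siRNA. By counts it was 83.5%, 90.8% and 72.5%, over the union of exons (added after seeing the data) 72.1%, 83.6% and 57.5%, and with processed pseudogenes summed 47.1%, 47.4% and 26.8%. It was highest in a knockdown library each time, which is a description only, since the family was chosen for H3F3B being higher there. Of 245 values for single genes and other pairs under these settings, 200 stayed within their counting interval and 45 did not. Of 408 values for the 34 list, targeted and nearest genes, set up after seeing the data, 331 stayed within it, 77 did not, and 7 changed sign, none of a gene past 2-fold. PRKDC ranged from -1.34 to -0.93 with IRF3 siRNA and from -1.49 to -1.11 with YAP siRNA, BAZ1B from -1.27 to -0.94 and -1.11 to -0.85, and MKI67 from -1.27 to -0.65 and -1.45 to -0.80. Against control, signs of members' values under 2-fold turned for H3F3A with YAP siRNA when pseudogenes were summed (0.16), for H2AFY with YAP siRNA under TMM (0.06) and with the trend removed (0.27), and for H2AFX with IRF3 siRNA with the trend removed (-0.04). TMM moved the median of all genes to 0.07 with IRF3 siRNA and 0.06 with YAP siRNA. Depth limits H3F3C and H2AFY2, for which 17 and 2 counts were the most in any library.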

Other observations

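The way exon length enters the deposited FPKM is not particular to histone genes. Of 10959 genes with at least 100 counts in a library and an entry in GENCODE release 29, 86.8% had a deposited length equal to the sum of their distinct exons within 1%, and 8.67% a length equal to the union of exons. The median ratio of deposited length to the union was 1.56. Levels of genes with many annotated isoforms are thus lower in FPKM than per kilobase of covered exon.

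Sequence shared with other annotated genes differed across the family. Of all 50-base windows in their transcripts, 28.3% were shared for H2AFY, 17.2% for H1FX, 11.7% for H3F3A, 9.25% for H2AFZ, 6.63% for H3F3B and 3.02% for H2AFV, and none for H1F0 and H2AFY2. For H2AFY and H1FX the partners were overlapping antisense genes, which had at most 21 counts in any library.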
